A study of Mus musculus with 18 samples.

Results

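The data described here are the transcript changes that lipopolysaccharide (LPS) produced in mouse macrophages kept in a mixture of 4 plant compounds, a set of constituents of Hypericum perforatum (St John's wort). The members were the 3 arrays of mixture plus LPS and the 3 arrays of the mixture alone, chosen by their titles, so 6 of the 18 arrays of the series, with all probe sets on them. RAW264.7 is a mouse macrophage-like tumour line that grows in culture and responds to LPS. The mixture was quercetin at 0.08 uM, pseudohypericin at 0.03 uM, amentoflavone at 0.07 uM and chlorogenic acid at 0.2 uM, and LPS was added at 10 ug/mL. Exposure lasted 8 h in both groups. Compounds and LPS were added without light, and every group, the controls included, then stood in ambient light for 30 min. The other 12 arrays were solvent control (0.1% DMSO) and a plant sub-fraction at 10 ug/mL, each with and without the same LPS, and they serve here for comparison only. How much solvent the mixture or the fraction carried is not stated in the labels. The series used 1 cell line, and the labels do not say whether the 3 arrays of a group were separate cultures, so p-values measure the spread between these arrays, which may be technical.

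LPS is a component of the outer membrane of Gram-negative bacteria. It is passed by Cd14 to the receptor pair Tlr4 and Ly96, and the adaptors Myd88 and Ticam1 lead to NF-kB, to the MAP kinases and, through Irf3 and type I interferon, to Jak and Stat signalling. Macrophages answer with cytokines, chemokines, prostaglandins and nitric oxide, then with inhibitors of the same pathway, and stimulated macrophages are known to slow their cell cycle.

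Affymetrix Mouse 430 2.0 arrays were used, and the values are the authors' MAS5 signals in arbitrary units, which had the same 2% trimmed mean on every array. Array medians were 55.1 to 66.2 for the mixture and 54.8 to 65.3 for mixture plus LPS, and arrays of 1 group correlated at 0.970 to 0.979 over all 6 groups. Signals below an array's median were treated as dim, and where the mean of 1 group lay there the fold is printed as "at least", computed against the array median. Of 10 macrophage markers, 9 lay above the array median on all 6 arrays, Mertk being the exception. Csf1r, the receptor for the macrophage growth factor, read 21280, 21495 and 22513 without LPS and 23585, 22346 and 23057 with it. The summed signal of the macrophage markers ran from 90020.7 to 100193.1 without LPS and from 108635.6 to 114736.1 with it, and 5 of the 9 tested markers were called higher. Cybb, Itgam and Adgre1 rose by 0.94, 0.70 and 0.62. Cd14 (0.27, adjusted p = 0.049) lost its call without any 1 of the 6 arrays but mixture array 3 (0.18 to 0.28), and Spi1 (0.31, adjusted p = 0.018) without mixture array 1 or LPS arrays 1 or 2 (0.22 to 0.30). Of 37 measured markers of the other cell types, Prf1 was over the array median on all 3 mixture arrays and none was on all 3 arrays with LPS. Their summed signal ran from 1037.5 to 1312.1 and from 1067.0 to 1215.0, and limma called 0 of the 13 that were tested. In bulk RNA, fewer cells in a given state and less of a transcript per cell cannot be told apart.

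Of 11547 genes tested, 2844 (24.6%) passed an adjusted p of 0.05 between mixture plus LPS and mixture alone (limma, Benjamini-Hochberg). LPS-treated arrays were higher for 961 genes (8.32%) and lower for 1883 (16.3%). At least 2-fold changes were found for 340 genes higher (2.94%) and 287 lower (2.49%). The split between rises and falls depended on the scaling. Centring every array on its median moved all differences up by 0.13 on the log2 scale and gave 1689 genes higher and 1092 lower. The median gene differed by -0.07, and arrays of both groups did not overlap for 4654 genes (40.3%), 1660 of them higher with LPS (14.4%) and 2994 lower (25.9%). Genes named for the largest rises and falls were chosen among these, so their lack of overlap was fixed by that choice. All differences below are log2 of group means ± standard error, with 3 arrays a group.

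**Figure D1:**
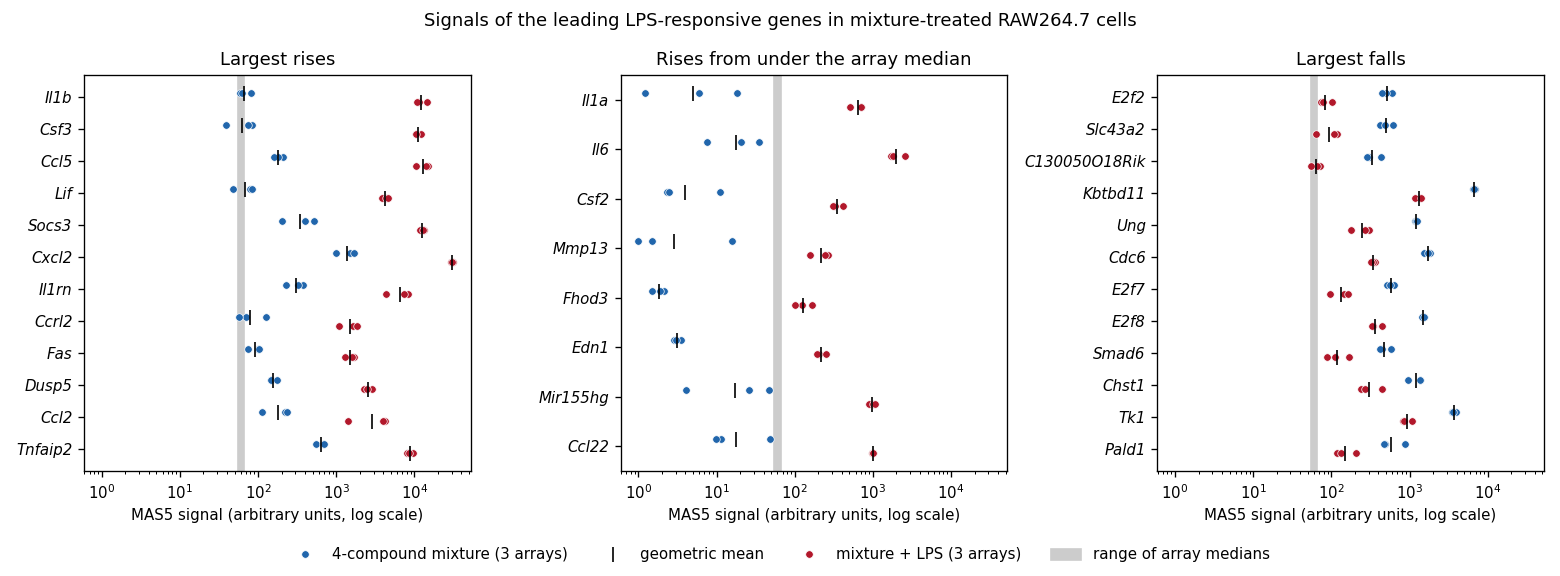
MAS5 signal on a log axis of each of the 6 arrays for the 12 genes with the largest rise, the 8 with the largest rise from under the array median and the 12 with the largest fall; bars mark geometric means and the grey band the range of array medians. Genes were chosen among those whose groups did not overlap, and Il1b, from 58.9 to 82.1 without LPS and from 10707 to 14306 with it, had the largest rise.

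A few of the leading genes carry, near their transcription start, letters that factors of this response are known to bind. Of the 20 named genes with the largest rise, 16 had a promoter in the table, and 2 of these held the NF-kB pattern and 2 the interferon element. The windows below run from 250 bases before the RefSeq start to 50 bases after it (build GRCm38.p6, all 4 on the plus strand), and capitals mark the match. Il6 (chr5:30012864-30013163) and Cxcl2 (chr5:90903649-90903948) are shown for the NF-kB pattern, which reads as GGGATTTTCC in Il6 and GGGAATTTCC in Cxcl2. Any base was allowed where these sequences differ, and the match begins 44 and 97 bases before their starts. E2f2 (chr4:136172024-136172323) and Cdc6 (chr11:98907901-98908200) are shown for the E2F patterns TTTGGCGC or TTTCCCGC. The match begins 39 bases after the start in E2f2 and 138 before it in Cdc6, where it lies on the minus strand and reads as GCGGGAAA.
Il6: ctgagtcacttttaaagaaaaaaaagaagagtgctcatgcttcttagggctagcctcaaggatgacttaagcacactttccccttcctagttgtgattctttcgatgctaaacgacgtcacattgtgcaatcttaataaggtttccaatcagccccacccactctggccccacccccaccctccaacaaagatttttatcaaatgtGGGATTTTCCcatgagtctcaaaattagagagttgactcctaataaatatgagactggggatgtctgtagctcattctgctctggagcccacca
Cxcl2: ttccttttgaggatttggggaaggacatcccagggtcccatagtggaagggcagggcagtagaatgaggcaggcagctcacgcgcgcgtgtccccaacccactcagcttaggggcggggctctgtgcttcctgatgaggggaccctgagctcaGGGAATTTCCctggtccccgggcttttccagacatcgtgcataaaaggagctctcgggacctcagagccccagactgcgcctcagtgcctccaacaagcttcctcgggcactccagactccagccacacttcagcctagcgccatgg
E2f2: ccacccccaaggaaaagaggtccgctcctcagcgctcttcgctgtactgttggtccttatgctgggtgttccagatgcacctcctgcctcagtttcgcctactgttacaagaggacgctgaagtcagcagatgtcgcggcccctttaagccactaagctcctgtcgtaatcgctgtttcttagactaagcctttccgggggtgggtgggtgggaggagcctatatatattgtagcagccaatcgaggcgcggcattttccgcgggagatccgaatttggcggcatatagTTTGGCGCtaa
Cdc6: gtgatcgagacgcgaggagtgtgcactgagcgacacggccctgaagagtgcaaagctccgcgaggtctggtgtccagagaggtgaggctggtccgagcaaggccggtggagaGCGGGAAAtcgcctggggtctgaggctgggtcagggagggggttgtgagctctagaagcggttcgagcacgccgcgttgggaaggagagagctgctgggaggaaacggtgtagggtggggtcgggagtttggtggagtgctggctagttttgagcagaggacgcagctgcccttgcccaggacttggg
Il6 and Cxcl2 rose and E2f2 and Cdc6 fell with LPS, with the values given further on. Searched on both strands, the NF-kB pattern was in 0.484% of the 11982 promoters of tested genes and in 1.71% of the 351 promoters of genes at least 2-fold higher. Among the promoters of chemokine genes it was in 3 of 14. The interferon element (ISRE), searched as a pair of GAAA repeats with any 2 bases between them, was in 3.08% of tested promoters, in 10.3% of those of the 2-fold higher genes and in 17 of 38 of the interferon list, and its letters can overlap with those of the second E2F pattern on the minus strand. An E2F pattern was in 2.98% of tested promoters, in 5.41% of the 314 promoters of genes at least 2-fold lower and in 11 of 40 of the replication list. The CRE pattern TGACGTCA was in 3.02%, and in 3.13% of the higher and 1.27% of the lower set. These are counts of letters in a window, not of bound sites.

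Secreted cytokines and growth factors were the list with the largest median difference among the 26 lists. Of 23 tested members of 29, 19 rose, 16 of them at least 2-fold, and the other 4 did not pass, with a list median of 2.48 log2. Il1b, the pyrogenic cytokine cut by caspase-1, read 82.1, 58.9 and 62.2 in the mixture and 11418, 14306 and 10707 with LPS. This rise of 7.49 ± 0.21 (adjusted p = 6e-15), or 180.0-fold, took Il1b from the level of the array median to far above it on every array. Csf3, the granulocyte growth factor, went from 38.7, 83.7 and 75.3 to 10491, 12066 and 10483 (7.46 ± 0.32, adjusted p = 4.5e-12, 176-fold). Lif, a cytokine of the Il6 family, went from 78.5, 47.6 and 84.0 to 3895, 4309 and 4610 (5.97 ± 0.22, adjusted p = 3.5e-13, 62.7-fold). For both genes the 3 stimulated arrays lay close together and the groups did not overlap. Il1rn, which encodes the antagonist of the Il1 receptor, also rose, from 375, 327 and 231 to 4355, 8297 and 7436 (4.40 ± 0.37, adjusted p = 4.7e-08).

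Other cytokines rose from signals that were dim without LPS. Il6, the acute phase cytokine, read 34.5, 7.6 and 20.8 and then 1717, 2546 and 1786, at least 33.2-fold higher (adjusted p = 3.2e-08). Il1a read 1.2, 18.3 and 5.9 and then 714, 713 and 505, at least 10.6-fold higher (adjusted p = 5.5e-07). Unstimulated signals of Il6 and Il1a spread widely but stayed under the array medians, and all stimulated ones lay above. Ifnb1, the type I interferon that feeds back on the cell, rose from 91.7, 82.1 and 70.5 to 451, 441 and 586 (2.59 ± 0.41, adjusted p = 9.2e-05). The deactivating cytokine Il10 rose from 74.0, 42.2 and 76.1 to 253, 465 and 349 (2.48 ± 0.57, adjusted p = 0.0029). Tnf started high, at 4200, 6159 and 6976, and reached 22753, 21866 and 21622, a rise of 1.97 ± 0.13 (adjusted p = 2.8e-09) or 3.91-fold. The Tnf groups did not overlap, and the unstimulated arrays spread more than the stimulated ones.

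Chemokines, which attract other leukocytes, rose for 11 of 20 tested members of 23 listed, 10 of them at least 2-fold, and the other 9 did not pass; the median was 1.79, and 1 fell without mixture array 2. Ccl5, an attractant of T cells and monocytes, read 209, 180.0 and 161 without LPS and 10496, 14778 and 14152 with it (6.16 ± 0.18, adjusted p = 1.4e-14, 71.3-fold). The neutrophil attractant Cxcl2 read 1000.0, 1515 and 1697 and then 31089, 29725 and 29839 (4.46 ± 0.20, adjusted p = 8e-12, 22.1-fold). Every stimulated array was above every unstimulated one for both. Ccl2, the monocyte attractant, went from 222, 235 and 111 to 4201, 3982 and 1433 (4.01 ± 0.43, adjusted p = 1.2e-06), with array 3 the lowest in both groups. Ccl22 was dim without LPS, at 11.4, 9.8 and 48.6, and read 962, 1018 and 1005 with it, at least 16.6-fold higher (adjusted p = 1.3e-07). Ccl4 and Ccl3, the macrophage inflammatory proteins, rose by 3.03 ± 0.26 and 1.55 ± 0.17. Cxcl10, the interferon-induced ligand of Cxcr3, rose from 4675, 3743 and 3616 to 17135, 18884 and 19734 (2.22 ± 0.18, adjusted p = 2.9e-08). Cxcl1 had overlapping groups and did not pass (0.30 ± 0.37, adjusted p = 0.62), on a probe set of a kind open to cross-hybridization.

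Receptors are read against the 8.32% of all genes that rose and the 16.3% that fell. Of 26 tested cytokine and chemokine receptors of 35, 8 rose, 5 fell and 13 did not pass, with a median of 0.03, and after median centring 9 rose and 3 fell. Ccrl2, an atypical chemokine receptor, rose from 70.9, 56.9 and 127 to 1096, 1623 and 1838 (4.21 ± 0.31, adjusted p = 8.1e-09, 18.5-fold). Tnfrsf1b, the inducible Tnf receptor, rose from 100.0, 93.7 and 47.3 to 742, 696 and 560.0 (3.12 ± 0.37). Cx3cr1, the fractalkine receptor, fell from 2543, 1142 and 950.0 to 766, 412 and 404 (-1.48 ± 0.27, adjusted p = 0.00035), with array 1 the highest of each group and no overlap between groups. In the Toll-like receptor pathway, 17 of 32 tested members of 40 rose and 3 fell, with a median of 0.43. The falls numbered 1 after quantile normalization, after median centring and without any 1 of mixture arrays 1 and 2 or LPS arrays 2 and 3. Tlr4 itself read 660.0, 675 and 718 without LPS and 593, 632 and 552 with it. Its groups did not overlap, but the difference of -0.21 ± 0.11 did not pass (adjusted p = 0.18). Tlr2, the lipoprotein receptor, rose from 8538, 6071 and 5619 to 10966, 11315 and 10082 (0.70 ± 0.12, adjusted p = 0.00027), and Tlr13, the receptor for bacterial ribosomal RNA, fell from 445, 178 and 206 to 108, 47.9 and 77.7 (-1.78 ± 0.31, adjusted p = 0.00023). The kinase Ikbke rose by 2.83 ± 0.17, Irak2, the kinase that sustains the signal, by 1.39 ± 0.10, the inflammasome sensor Nlrp3 by 1.78 ± 0.15 and the LPS-sensing caspase Casp4 by 1.86 ± 0.18.

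NF-kB subunits and their inhibitors rose for 9 of 10 tested members of 11, 7 of them at least 2-fold, with a median of 1.49. Nfkbiz, a nuclear cofactor needed for secondary genes such as Il6, went from 1975, 1295 and 1519 to 10225, 11474 and 11334 (2.81 ± 0.15, adjusted p = 9.9e-11, 7.0-fold). The subunit Rel went from 485, 584 and 575 to 1781, 2094 and 1971 (1.83 ± 0.11, adjusted p = 4.6e-10), and Nfkb2 rose by 1.61. The inhibitor Nfkbia, bright already, rose from 11358, 13588 and 14617 to 24183, 22733 and 23600 (0.84 ± 0.09, adjusted p = 1.4e-06). None of these groups overlapped.

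Feedback inhibitors as a list rose for 14 and fell for 3 of 32 tested members of 33, with a median of 0.50. Socs3, which blocks cytokine receptor signalling, read 516, 202 and 401 without LPS and 11680, 13272 and 12844 with it, on a probe set open to cross-hybridization (5.18 ± 0.24, adjusted p = 8.7e-12, 36.2-fold). The MAP kinase phosphatase Dusp5 rose from 146, 145 and 174 to 2262, 2859 and 2475 (4.03 ± 0.20, adjusted p = 2e-11). Tnfaip3, the ubiquitin-editing enzyme, rose from 214, 254 and 319 to 1815, 2100.0 and 2092 (2.95 ± 0.20, adjusted p = 3.2e-09). All stimulated arrays of the 3 genes lay above all unstimulated ones. Zfp36 and Zc3h12a, which destroy cytokine mRNAs, rose by 2.53 ± 0.20 and 2.27. Zfp36l2, a relative of Zfp36, fell from 4191, 3455 and 4626 to 1457, 1245 and 1282 (-1.62 ± 0.12, adjusted p = 1.1e-08, 3.07-fold), and the phosphatase Dusp14 fell from 261, 298 and 253 to 97.4, 49.4 and 67.2 (-1.98 ± 0.34).

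Stimulus-induced transcription factors rose for 17 and fell for 2 of 32 tested, with a median of 0.57. Egr1, an immediate-early factor, read 661, 1837 and 1350.0 and then 4850.0, 5046 and 5119 (2.09 ± 0.27). Atf3, a repressor within the same response, read 349, 273 and 195 and then 862, 1150.0 and 1350.0 (2.06 ± 0.24, adjusted p = 3.5e-06). Id2, an inhibitor of helix-loop-helix factors, fell from 3488, 2862 and 3641 to 1210.0, 1392 and 1285 (-1.36 ± 0.17, adjusted p = 5.2e-06). None of the 3 genes had overlapping groups, and array 1 of the mixture was the lowest for Egr1 and the highest for Atf3. Junb and Cebpd rose by 1.67 ± 0.12 and 1.68 ± 0.14, and the 1 other kept probe set of Cebpd was not called.

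The type I interferon response had the largest share of rising members among the 26 lists in the main fit. Its rank was not stable: 31 to 35 members rose with 1 array left out and 33 after quantile normalization. The NF-kB and IkB list kept 9 of 10 in these settings. Of 39 tested members of 44, 36 rose, 24 of them at least 2-fold, and the other 3 did not pass, with a median of 1.37. Rsad2, which makes an antiviral nucleotide, read 4327, 3100.0 and 2208 without LPS and 21608, 25791 and 26461 with it (2.99 ± 0.25, adjusted p = 3.9e-08, 7.93-fold). Ifit1, a binder of foreign RNA ends, read 1775, 1295 and 1114 and then 8238, 9597 and 9153 (2.71 ± 0.23, adjusted p = 4.4e-08), and the RNA sensor Ifih1 read 2750.0, 3128 and 2321 and then 9220.0, 10146 and 10541 (1.88 ± 0.13, adjusted p = 2.7e-09). No array with LPS overlapped with one without in these genes. The GTPase Gbp3 rose by 2.95 ± 0.42, and Gbp2, dim without LPS, rose at least 6.97-fold. Of the interferon regulatory factors, Jak kinases and Stat factors, 7 of 16 tested of 19 rose, with a median of 0.31. That count was 4 without mixture array 1 and 3 without mixture array 3 or LPS array 3. Stat5a rose by 1.44 ± 0.18 and Stat2, a subunit of the interferon-activated factor, by 1.13 ± 0.25.

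Prostaglandins and nitric oxide are classic macrophage mediators of inflammation. Of 19 tested members of 26, 7 rose, 4 fell and 8 did not pass, with a median of 0.03. Ptgs2, the inducible cyclooxygenase, read 3468, 2345 and 2934 in the mixture and 22190.0, 21867 and 21519 with LPS (2.92 ± 0.17, adjusted p = 3e-10, 7.59-fold). Its 3 stimulated arrays lay close together and far above the unstimulated ones. Ptges, the prostaglandin E synthase that works with it, rose from 40.7, 73.1 and 91.5 to 170.0, 191 and 159 (1.41 ± 0.31, adjusted p = 0.0023). Nos2, the inducible nitric oxide synthase, had a dim mean without LPS, with array 2 above its array's median, at 51.1, 75.2 and 9.1, and read 337, 399 and 345 with it, at least 5.42-fold higher (adjusted p = 0.00012). Gch1, which makes the cofactor of Nos2, rose by 0.99 ± 0.13. Hpgd, which breaks prostaglandins down, fell from 306, 723 and 291 to 42.1, 80.6 and 38.1, at least 6.06-fold (adjusted p = 2.5e-05), on a probe set open to cross-hybridization, and the synthase Hpgds fell by 0.99 ± 0.19 on the log2 scale. The 1 other kept probe set of Hpgd was not called.

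Of 23 tested antigen presentation and costimulation genes of 30, 12 rose and the other 11 did not pass, with a median of 0.52. Cd83, a maturation marker, read 387, 457 and 395 and then 4403, 5036 and 5251 (3.57 ± 0.16, adjusted p = 8.7e-12, 11.9-fold). Cd40, the receptor for T cell help, read 588, 698 and 600.0 and then 5076, 6005 and 6063 (3.18 ± 0.17, adjusted p = 9.9e-11). Cd69 was dim without LPS, at 17.9, 7.4 and 12.9, and read 599, 515 and 484 with it, at least 8.88-fold higher (adjusted p = 2.5e-09). In all 3 genes the groups lay well apart. Matrix proteases, matrix and adhesion genes rose for 8 and fell for 2 of 19 tested members of 27, with a median of 1.01. Tnc, the matrix protein tenascin C, went from 153, 48.9 and 81.4 to 1074, 971 and 1380.0 (3.74 ± 0.32), and the collagenase Mmp13, at 1.5, 1.0 and 15.9 without LPS, reached 158, 265 and 245, at least 3.63-fold higher (adjusted p = 5.5e-05). For both genes every stimulated array was above every unstimulated one. Acute phase, complement and iron genes rose for 9 of 17 tested of 29, with a median of 1.12 and the other 8 not passing. Among them Saa3, serum amyloid A, went from 102, 116 and 141 to 875, 1317 and 848 (3.07 ± 0.40, adjusted p = 1.1e-05), and the iron-siderophore binder Lcn2, dim without LPS, rose at least 6.49-fold.

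DNA replication and G1/S genes had the largest share of falling members among the 26 lists. Of 40 tested members of 43, 39 fell, 15 of them at least 2-fold, and 1, Pola1, did not pass, with a median of -0.83; after median centring 38 fell. E2f2, an activating E2F factor, read 594, 495 and 451 without LPS and 74.2, 78.4 and 101 with it (-2.60 ± 0.23, adjusted p = 8.5e-08, 6.08-fold). Cdc6, which loads the replicative helicase, read 1532, 1835 and 1742 and then 363, 339 and 326 (-2.31 ± 0.17, adjusted p = 6.9e-09, 4.96-fold). Ung, the uracil glycosylase that cleans new DNA, read 1178, 1217 and 1245 and then 307, 176 and 267 (-2.32 ± 0.22, adjusted p = 3.1e-07). The stimulated arrays of the 3 genes were all below the unstimulated ones. E2f8, a repressor E2F, fell by 2.04 ± 0.16 on the log2 scale and thymidine kinase, Tk1, by 1.99 ± 0.17. The helicase subunit Mcm2 fell from 4086, 4233 and 4598 to 2145, 1742 and 1956 (-1.15 ± 0.11). The polymerase clamp Pcna moved least among those that passed and are named here, from 18789, 19160.0 and 19598 to 16098, 15355 and 15096 (-0.31 ± 0.07, adjusted p = 0.0044), and its call was lost with median centring (-0.17, adjusted p = 0.13).

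Mitosis and spindle genes fell for 28 of 36 tested members of 37, the other 8 did not pass, and the median was -0.56; after median centring 19 fell. Plk1, the kinase that drives mitotic entry and exit, read 2812, 2833 and 2459 and then 1815, 1561 and 1613 (-0.70 ± 0.12). Ndc80, a kinetochore protein, read 493, 589 and 590.0 and then 407, 260.0 and 231 (-0.93 ± 0.21). Both genes were lower on every stimulated array. Outside the cell cycle lists, the largest falls included the amino acid transporter Slc43a2, from 611, 414 and 480.0 to 118, 63.1 and 108 (-2.41 ± 0.27), and Kbtbd11, from 6499, 6919 and 6760.0 to 1369, 1180.0 and 1404 (-2.36 ± 0.19, 5.12-fold), neither with any overlap. Kbtbd11 has 1 other kept probe set, which was not called.

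**Figure D2:**
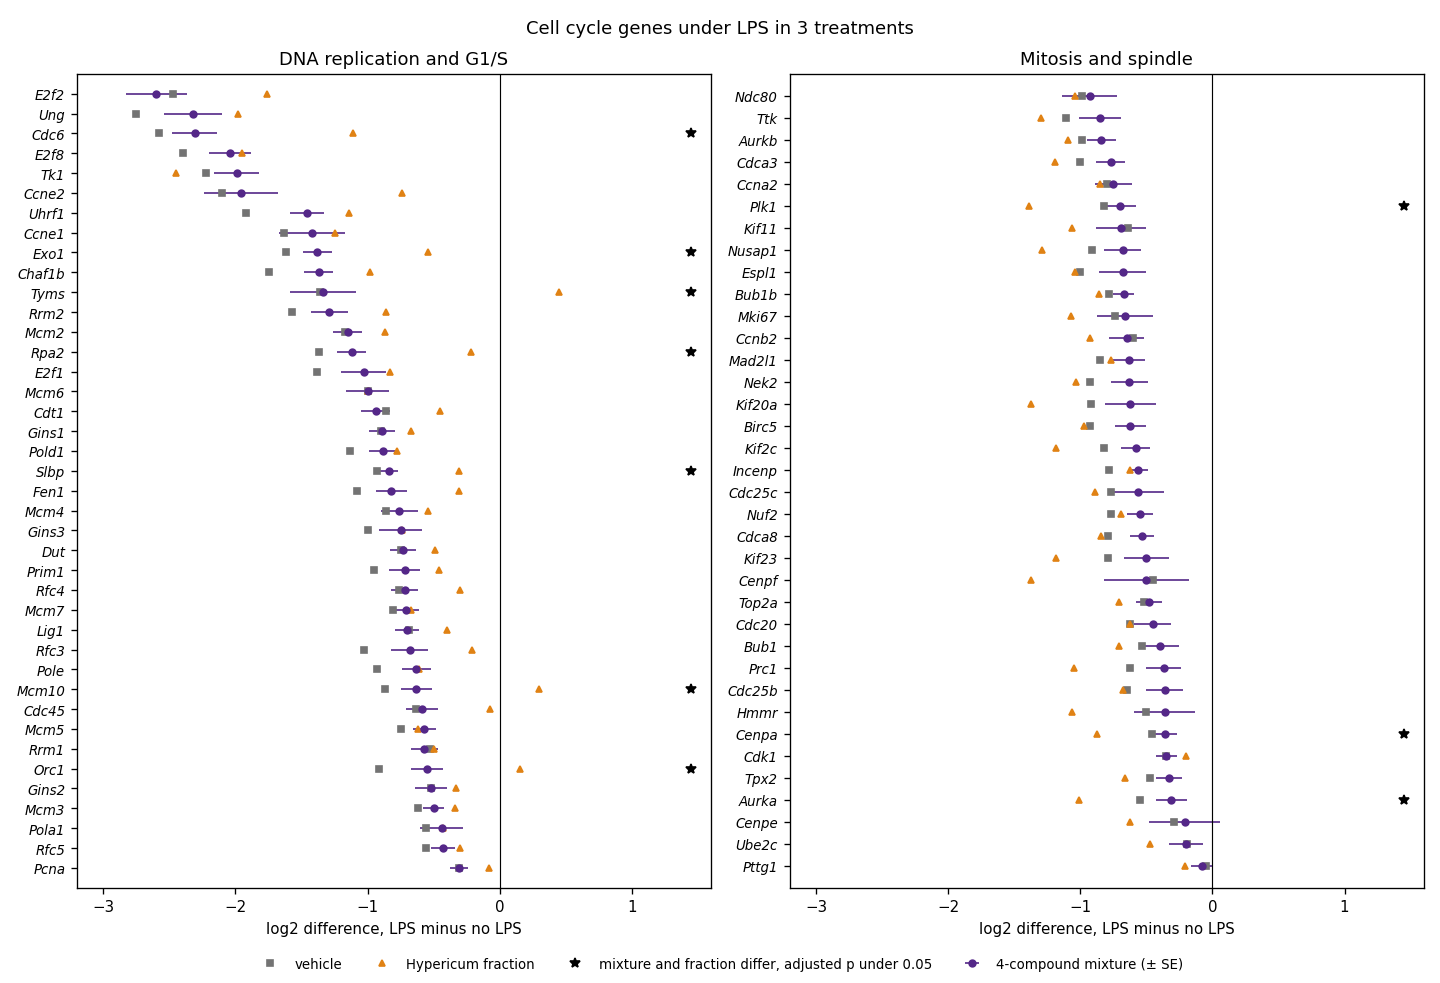
Log2 difference with LPS of 40 replication and G1/S genes and 36 mitosis and spindle genes in solvent control, fraction and mixture cells, 1 point a gene; stars mark genes whose mixture and fraction differences were called different. Nearly all replication genes lie below 0 in the mixture, where 39 of 40 fell, and 28 of 36 mitosis genes fell.

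Survival and death genes rose for 11 and fell for 5 of 27 tested members of 35, with a median of 0.34. The death receptor Fas rose from 100.0, 73.3 and 103 to 1672, 1569 and 1307 (4.05 ± 0.19, adjusted p = 1.9e-11, 16.6-fold). Cflar, which blocks caspase-8, rose by 1.94 and Gadd45b by 2.68. The itaconate-making enzyme Acod1, of the glycolysis and hypoxia list, rose from 1851, 2019 and 1853 to 23335, 22190.0 and 22551 (3.57 ± 0.19, adjusted p = 8.6e-11), while that list had 5 of 22 tested members higher and 4 lower. Macrophage identity genes rose for 9 and fell for 5 of 30 tested of 38, where 8.32% of all genes rose and 16.3% fell, with a median of 0.08; the falls were 3 after median centring and without mixture array 1 or LPS array 3. Maf, dim without LPS at 46.5, 50.7 and 28.9, read 916, 744 and 586 with it, at least 12.3-fold higher, and Cebpa, a myeloid lineage factor, fell from 1210.0, 1032 and 1289 to 458, 455 and 540.0 (-1.28 ± 0.12, adjusted p = 2.7e-07). In both genes the groups stood apart.

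Counts in the 3 stress lists are to be read against the 8.32% of all genes that rose and the 16.3% that fell. NRF2 antioxidant genes rose for 5 and fell for 4 of 21 tested of 25, and after median centring for 6 and 1; without array 2 of either group, 2 fell. The cystine transporter Slc7a11 rose from 476, 379 and 424 to 1546, 1569 and 1421 (1.83 ± 0.11, adjusted p = 3.1e-10), and Gclc, the first enzyme of glutathione synthesis, fell from 3191, 2967 and 2588 to 1641, 1303 and 1276 (-1.06 ± 0.16). Haem oxygenase, Hmox1, read 1042, 868 and 882 without LPS and 712, 862 and 755 with it and did not pass (-0.26 ± 0.14, adjusted p = 0.2). Its highest stimulated array lay just under its lowest unstimulated one. Of 26 tested genes (27 listed) of the unfolded protein and integrated stress responses, 8 rose and 3 fell, with a median of 0.08; 5 rose without LPS array 2 or LPS array 3, and 1 fell after median centring. Ppp1r15a, a phosphatase subunit of that response, rose from 340.0, 445 and 445 to 755, 1057 and 1267 (1.30 ± 0.18). Ddit3, the factor Chop, rose from 248, 305 and 291 to 347, 626 and 601 (0.86 ± 0.23, adjusted p = 0.009). Its groups did not overlap, but the call was lost without LPS array 2 (0.70, adjusted p = 0.059) or LPS array 3 (0.73, adjusted p = 0.052). Of 18 tested heat shock genes of 21, 1 rose, Hspa1b, from 1041, 1163 and 974 to 1826, 2335 and 1887 (0.92 ± 0.17, adjusted p = 0.00042); 6 rose after median centring and 2 without LPS array 1. The sequence of Hspa1b is close to that of Hspa1a, and the signal may come from either gene. Hspa1b has 2 other kept probe sets, and neither was called.

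The last lists are metabolic and housekeeping ones, to be read against 24.6% of all genes called. Ribosome biogenesis and Myc genes had 3 of 34 tested members of 36 higher and 1 lower, with a median of 0.07, and 12 higher after median centring; 1 was higher after quantile normalization and without mixture array 2, LPS array 1 or LPS array 2. The 1 fall was lost after median centring and without LPS array 3, and the falls were 2 without LPS array 1 or with the replicate block. Myc itself rose from 164, 78.7 and 89.3 to 911, 824 and 776 (2.99 ± 0.35, adjusted p = 3.1e-06), and every stimulated array was above every unstimulated one. Cholesterol synthesis and uptake genes had 1 of 22 tested members of 27 higher and 1 lower, with a median of -0.02, and the higher one was lost without mixture array 3 or LPS array 2. Dhcr7, the last enzyme of that route, fell from 637, 719 and 760.0 to 402, 361 and 323 (-0.96 ± 0.14). Lipid handling and LXR targets had 4 higher and 4 lower of 22 tested of 25. Fabp4, a fatty acid carrier, rose from 249, 253 and 203 to 1772, 2080.0 and 1563 (2.94 ± 0.23, 7.66-fold), while the desaturase Scd2 fell from 12560.0, 12967 and 14711 to 5799, 5795 and 6912 (-1.12 ± 0.22). Lysosome genes had 2 higher and 4 lower of 30 tested of 34, and 6 higher and 1 lower after median centring; each array left out in turn left 1 or 2 of the 4 falls, and without LPS array 1 or LPS array 2 the rises were 1. Respiratory chain genes had 0 of 29 tested members of 30 called by limma, and 0 at an unadjusted p of 0.05.

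**Figure D3:**
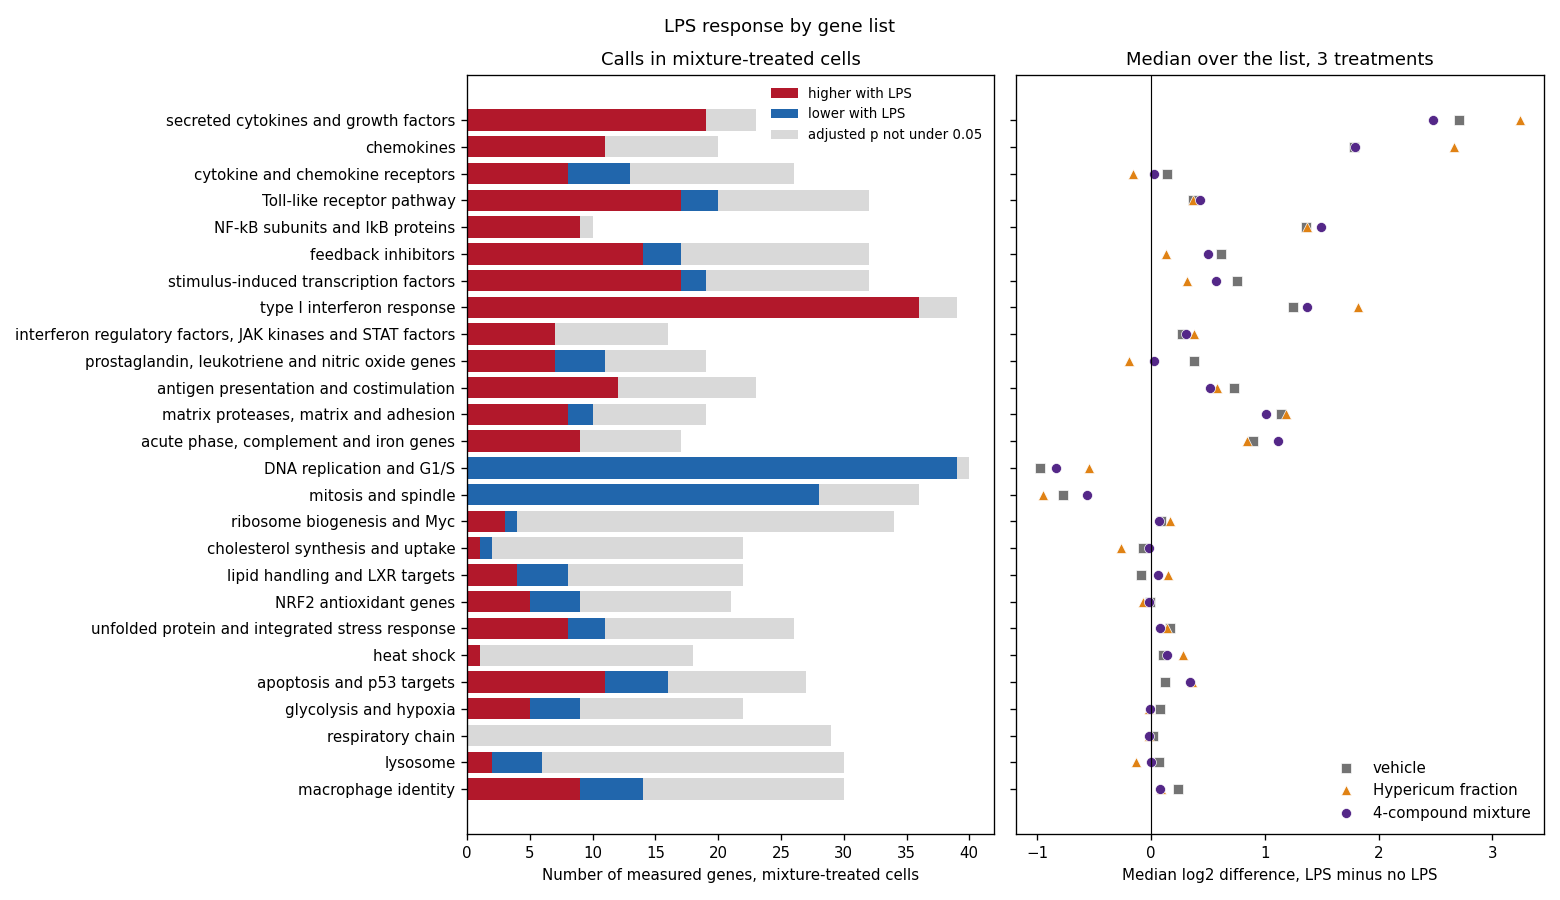
Number of tested members of each of the 26 gene lists that were higher, lower or did not pass with LPS in mixture-treated cells, and beside it the list's median log2 difference in solvent control, fraction and mixture cells. Nearly all members were called in the replication (39 of 40 lower), interferon (36 of 39 higher) and NF-kB and IkB (9 of 10 higher) lists.

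The LPS response with the mixture was then set against the LPS response in solvent control, from 6 other arrays. No gene passed the test of the difference itself (limma, 0 of 11547, 0%), and 412 genes (3.57%) had an unadjusted p under 0.05. The number of genes that passed was 10 without LPS array 1 of the solvent control, 1 without mixture array 1 and 2 without all arrays numbered 1. The smallest adjusted p, 0.31, belonged to Klhl2, an adaptor of a ubiquitin ligase, which read 866, 685 and 651 and then 717, 688 and 645 in the mixture. Its difference was -0.09 there and -0.92 in solvent control, an interval of 0.51 to 1.15 for the gap. The design limits what can be said of single genes: the median gene had a 95% interval of ± 0.43 log2, and for 8489 genes (73.5%) the whole interval lay within 1 log2 of no difference. Of the 627 genes that changed at least 2-fold in the mixture, 352 had such an interval.

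For the mediators, Ptgs2 rose by 2.92 with the mixture and 2.75 in solvent control, a difference with an interval of -0.34 to 0.69. Tnf rose by 1.97 and 1.62 (interval -0.05 to 0.75), Il1b by 7.49 and 7.30 (-0.42 to 0.80) and Socs3 by 5.18 and 5.15 (-0.67 to 0.73). Nos2 and Il6 had unstimulated means under the array medians, so the sizes of their rises are uncertain. Their fitted rises were 3.46 and 2.99 for Nos2 (-1.18 to 2.12) and 6.82 and 8.25 for Il6 (-3.10 to 0.23). Saa3 rose by 3.07 with the mixture and 4.86 in solvent control, a gap of -1.79 with an interval of -2.98 to -0.61, and Tnc by 3.74 and 5.08, a gap of -1.34 (-2.27 to -0.41). The intervals of Saa3 and Tnc are unadjusted and leave out 0, but both genes had an adjusted p of 1 over all genes. Median differences of the lists, mixture first, were 1.37 and 1.25 for interferon genes and -0.83 and -0.97 for replication genes; cytokines had 2.48 and 2.71, and mitosis genes -0.56 and -0.77.

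By calls, 3680 genes (31.9%) passed in solvent control, 2519 of them lower (21.8%). Both responses called 2394 genes in 1 direction, which was 84.2% of the mixture's calls and 65.1% of the solvent control's, and 1 gene, Tnk1, in opposite directions. Tnk1, a kinase gene, read 51.6, 51.6 and 71.4 and then 15.2, 26.9 and 32.7 in the mixture, at or under the array medians on most arrays. The difference from solvent control was -2.89, adjusted p = 0.75. Its call in the mixture was lost without any 1 of the mixture arrays or LPS arrays 1 and 2 (-1.37 to -0.95, adjusted p = 0.056 to 0.14). Of the 340 genes at least 2-fold higher with the mixture, 304 were also called higher in solvent control, with medians of 1.70 and 1.64. Of the 287 at least 2-fold lower, 250 were called lower, with medians of -1.30 and -1.33. Taken from the other side, the 410 genes (3.55%) at least 2-fold higher in solvent control had a median of 1.70 there and 1.41 with the mixture, and the 410 lower ones (3.55%) -1.27 and -1.04. Each set was chosen on 1 of the responses, which favours that response in its own set. Over all genes the differences correlated at r = 0.778, as a description over 11547 genes that are not independent.

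**Figure D4:**
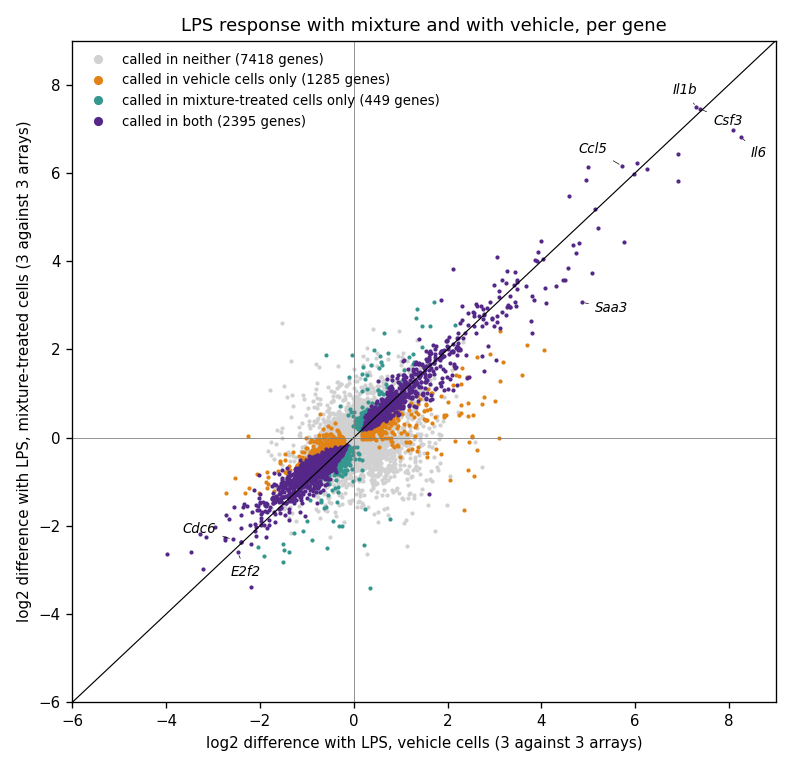
Log2 difference with LPS of 11547 genes in solvent control (x) and in mixture-treated cells (y), coloured by where the gene was called. Among genes called in both, 2394 had the same sign and 1 the opposite sign, with 1285 called in solvent control alone and 449 with the mixture alone.

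Against the LPS response in fraction-treated cells, 234 genes (2.03%) differed, 157 of them with the more positive difference in the mixture (1.36%) and 77 with the more negative (0.667%). After median centring these were 86 and 85. The count was 122 without fraction array 2, 120 without fraction plus LPS array 3, 126 without mixture array 3, and 147, 107 and 125 without mixture plus LPS arrays 1, 2 and 3. LPS changed 4309 genes (37.3%) in the fraction, 2979 of them to lower levels (25.8%). Of the 234, 27 rose with the mixture and rose less or not at all with the fraction, 30 rose more with the fraction, 22 fell with the mixture and fell less or not at all with the fraction, 46 fell more with the fraction, and 84 with a positive and 25 with a negative difference were not called in the mixture. The 27 include genes that fell with the fraction, such as Ddit3 and Trib3. Calls in the mixture and the fraction went in opposite directions for 6 genes. The 234 are differences of responses, and a gene can differ through its level without LPS, with LPS or both. Both levels are therefore given, as geometric means, for many of the genes below but not for all.

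Several genes rose in both treatments by different amounts. Cxcl2 went from 1370.0 to 30211 in the mixture and from 6432 to 31630.0 in the fraction, a difference of 2.16 ± 0.28 between the rises (adjusted p = 0.00041). Jdp2, a Jun dimerization partner, went from 2167 to 7709 and from 4047 to 6322 (1.19 ± 0.15, adjusted p = 0.00034). Cxcl10 was the reverse, from 3985 to 18553 in the mixture and from 617 to 12511 in the fraction (-2.12 ± 0.26, adjusted p = 0.00028). Both chemokines rose in either treatment, Cxcl2 more with the mixture and Cxcl10 more with the fraction. Hspa1b had the smallest p of all, going from 1056 to 2004 in the mixture and from 65.8 to 912 in the fraction (-2.87 ± 0.24, adjusted p = 2.9e-06). These values are of its brightest probe set, and its 2 others were not called for LPS in the mixture. Cd83 rose by 3.57 in the mixture, from 412 to 4883, and by 2.11 in the fraction, from 1440.0 to 6220 (1.46, adjusted p = 0.0027).

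In another group LPS lowered a gene in the fraction but gave no call in the mixture, except for Hdac9 under some settings. Hdac9, a class II histone deacetylase, read 197, 246 and 220.0 and then 127, 152 and 198 in the mixture (-0.49 ± 0.18, adjusted p = 0.053; 0.029 with the replicate number as a block and 0.018 without LPS array 3), and fell from 956 to 143 in the fraction, a difference of 2.25 ± 0.26 (adjusted p = 0.00023). Klf4, a myeloid transcription factor, read 156, 140.0 and 159 and then 125, 83.6 and 158 in the mixture, with overlapping groups, and fell from 1630.0 to 276 in the fraction (2.21 ± 0.28, adjusted p = 0.00034). Ptger4, a prostaglandin E receptor, read 1060.0, 959 and 986 and then 1001, 982 and 1089, also overlapping, and fell from 621 to 225 in the fraction (1.49 ± 0.19, adjusted p = 0.00034). For Hdac9 the highest stimulated array of the mixture lay just above its lowest unstimulated one. Snhg12, a host of small nucleolar RNAs, had geometric means of 983 and 1035 in the mixture and fell from 2307 to 1181 in the fraction (1.04 ± 0.12, adjusted p = 0.00025).

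Ddit3 and Trib3 went in opposite directions in the mixture and the fraction. Ddit3 rose from 280.0 to 507 in the mixture and fell from 6275 to 3011 in the fraction, a difference of 1.91 ± 0.32 (adjusted p = 0.0041). Trib3, a target of Ddit3, rose from 151 to 238 and fell from 5134 to 2757 (1.55 ± 0.23, adjusted p = 0.0017), on a probe set open to cross-hybridization. Both were already far higher in the fraction without LPS than in the mixture with it. Atf3 rose from 265 to 1102 in the mixture, while in the fraction it stood at 2612 and 3172 (1.78 ± 0.34, adjusted p = 0.01). The antioxidant genes of the mitochondrion and of cystine uptake differed in opposite ways: Slc7a11 rose by 1.83 and 0.99 (adjusted p = 0.0071) and Sod2 by 0.78 and 1.37 (adjusted p = 0.0084). Slc7a11 went from 424 to 1511 in the mixture and from 1626 to 3224 in the fraction. Sod2 went from 6148 to 10529 and from 5528 to 14282.

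Other genes responded more strongly in the fraction. Lif rose from 68.0 to 4261 in the mixture and from 49.0 to 10612 in the fraction (-1.79 ± 0.31, adjusted p = 0.0045). Micall2, an adaptor of cell junctions, read 155, 136 and 173 and then 450.0, 415 and 458 in the mixture, and went from 91.8 to 905 in the fraction (-1.78 ± 0.29, adjusted p = 0.0028). The tetraspanin Tspan3 read 2537, 2449 and 2338 and then 4552, 4535 and 4644, and went from 1768 to 5924 in the fraction (-0.84 ± 0.11, adjusted p = 0.00041). All these rises were without overlap in the mixture. Zfp703, a transcriptional repressor, read 194, 223 and 167 and then 183, 147 and 159 in the mixture, with overlapping groups, and rose from 249 to 780.0 in the fraction (-1.91 ± 0.28, adjusted p = 0.0016). By contrast, Id2 fell from 3312 to 1294 in the mixture and stood at 1890.0 and 2158 in the fraction (-1.55 ± 0.23, adjusted p = 0.0018).

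**Figure D5:**
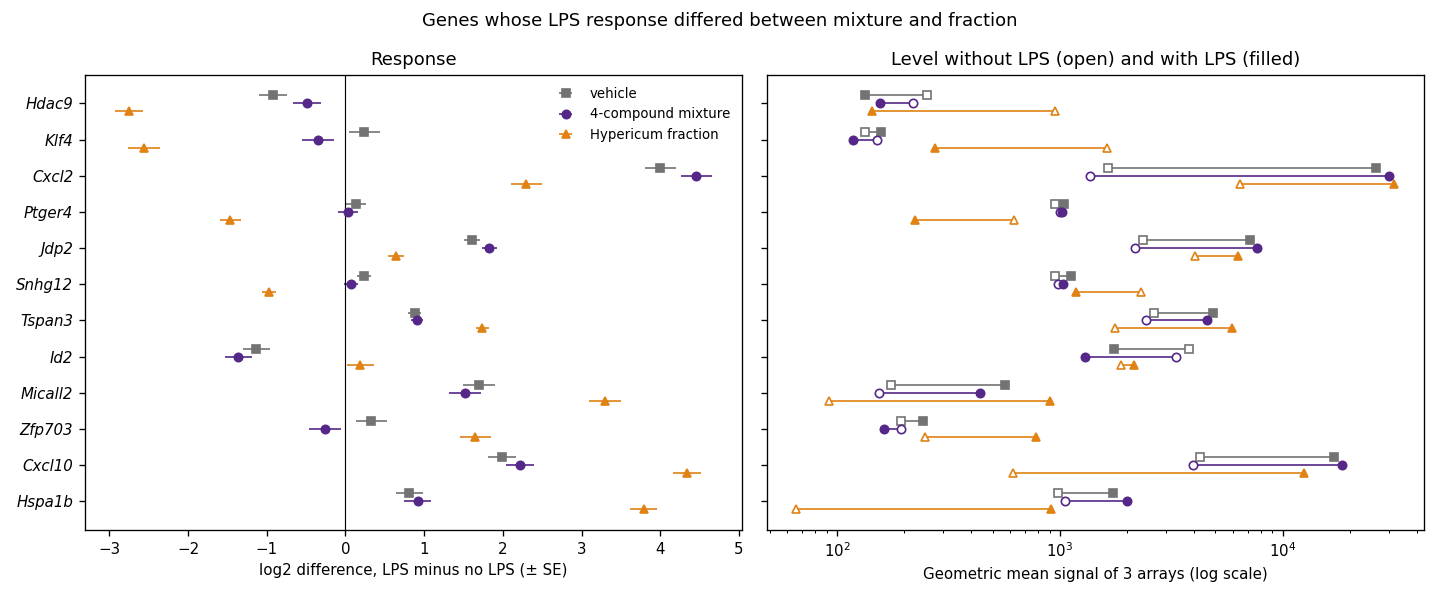
Log2 difference with LPS (± SE) in solvent control, fraction and mixture of the 12 genes with the smallest p for mixture against fraction, 6 in each direction, and their geometric mean signals without (open) and with (filled) LPS. Without LPS, Hdac9 stood at 956 in the fraction and 220.0 in the mixture, and Hspa1b at 65.8 and 1056.

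Several lists differed in part between mixture and fraction. Over all genes, 1.36% had a more positive and 0.667% a more negative difference in the mixture. In the interferon list 6 of 39 tested members were more negative, and in the unfolded protein list 5 of 26 were more positive. Some of these calls, such as Irgm1 and Herpud1, were lost when 1 of several arrays was left out. The replication list also differed in part. Of its 40 tested members, 39 fell with the mixture, 40 in solvent control and 33 with the fraction, with medians of -0.83, -0.97 and -0.54, and 7 had a more negative difference in the mixture than in the fraction by the test. Cdc6 fell from 1698 to 343 in the mixture and from 389 to 181 in the fraction (-1.20 ± 0.24, adjusted p = 0.012). Rpa2, a single-strand binding subunit, fell from 1970.0 to 906 and stood at 899 and 771 in the fraction (-0.90, adjusted p = 0.0041). Mcm10, a replication initiation factor, fell from 1265 to 819 and stood at 584 and 717 in the fraction (-0.92, adjusted p = 0.0072). In each the fraction without LPS already lay below the mixture without LPS. Among the 7, Orc1 lost its call when 1 of several arrays was left out, such as LPS array 2 of the mixture (adjusted p = 0.088). Without all arrays numbered 1, Orc1 and Tyms lost theirs (adjusted p = 0.11 and 0.15). With the 1.5-fold minimum, these 7 calls and the 3 of the mitosis list named next were lost. In the mitosis list 28 of 36 fell with the mixture and 34 with the fraction, with medians of -0.56 and -0.95, and Plk1, Aurka and Cenpa called different. Each of these 3 calls was lost when 1 of several arrays was left out, such as LPS array 2 of the mixture (adjusted p = 0.071, 0.073 and 0.066).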

How the data were processed

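Trizol-extracted, column-cleaned RNA of the RAW264.7 cells had been given a biotin label (one-cycle kit), per the labels' protocols, and each sample had its own array. The authors' deposited values are intensities on a linear scale, 1 for each of 45101 probe sets, made with MAS5 per the submitters' processing notes, with no version stated there. Detection calls and raw scans were not used here. The number of arrays limits the precision.

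Controls (64 probe sets) were dropped. A single gene symbol was annotated for 34945 probe sets, several for 932 and none for 9160, and Entrez IDs linked 34741 to RefSeq names. The deposited intensities were set to at least 1 (0.824% lay under it) and taken to log2. Probe sets at or above the array median on at least 3 of 18 arrays were kept (25612, of which 21553 with 1 symbol), and the brightest stood for each of 11547 genes. Of 5575 genes with several kept probe sets, 8 had probe sets called in both directions for LPS in the mixture. Probe sets of a type prone to cross-hybridization represented 1220 genes. limma 3.58.1 under R 4.3.3 fitted 6 group means to all 18 arrays (eBayes, trend on, residual df 12). Tests were two-sided, p-values were adjusted by Benjamini-Hochberg over the 11547 genes, and the threshold was 0.05. The contrasts were LPS within each treatment, and the LPS response of the mixture minus that of the solvent control and of the fraction. The procedure was tested on simulated data. Plots and motif counts used Python 3.11.15.

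The 26 gene lists (663 of 780 genes tested), the comparison and the named genes were chosen with earlier results of these data known. By rule, the named genes were those with groups that did not overlap, the 12 largest rises, the 12 largest falls and the 8 largest rises from under the array median; up to 4 called members per list; Ptgs2, Tnf, Il1b, Il6, Nos2, Socs3 and Hmox1; and for each difference of responses the 6 smallest p in each direction, or 5 where fewer than 5 passed. Other list members given in the text, such as Tlr4, Pcna, Trib3 and Cxcl1, were chosen after their values were seen. Not all genes so chosen are described. The labels do not state that the replicate numbers pair the arrays, and the main fit did not pair them. Correlations of same-numbered deviations were all positive, at 0.018 to 0.17. Alternatives were a replicate block, other scalings, filters, pseudocount and probe set choices, no trend, only the arrays compared, a 1.5-fold minimum and arrays left out.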

Additional observations from a re-analysis of the deposited data

Results flagged for a closer look

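The LPS response of 27 genes named above or chosen by the same rule differed between mixture-treated and fraction-treated cells by the test of the difference itself (limma, adjusted over all genes); values are the mixture's log2 difference minus the fraction's. No such difference from solvent control passed. Among the genes for secreted proteins, Lif differed by -1.79, Cxcl2 by 2.16 and Cxcl10 by -2.12. Among receptors and surface proteins, Ptger4 differed by 1.49, Cd83 by 1.46, Tspan3 by -0.84 and Cx3cr1 by -1.56. Transcription factors and repressors gave 1.78 for Atf3, 0.84 for Cebpd, 2.21 for Klf4, 1.19 for Jdp2, -1.55 for Id2, -1.91 for Zfp703 and 2.25 for Hdac9. Stress and antioxidant genes gave 1.91 for Ddit3, 1.14 for Ppp1r15a, 0.66 for Herpud1, -2.87 for Hspa1b, 0.84 for Slc7a11 and -0.59 for Sod2. The others were Ifit1 at -1.81, Acod1 at -1.24, Cdc6 at -1.20, Scd2 at 1.26, Tnfaip2 at 1.18, Micall2 at -1.78 and Snhg12 at 1.04. Acod1 went from 1906 to 22687 in the mixture and from 791 to 22269 in the fraction, so its levels with LPS were close.

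Some of these calls rested on single arrays out of the 12 compared. Acod1 lost its call without fraction plus LPS array 3 or mixture plus LPS arrays 2 or 3 (-1.24 to -1.22, adjusted p to 0.058). Ifit1 lost it without all arrays numbered 1 (-1.55, adjusted p = 0.057). Ppp1r15a lost it without any 1 of 6 arrays (fraction 1 and 2, fraction plus LPS 3, mixture 1, mixture plus LPS 2 and 3), at 0.97 to 1.10. Tnfaip2, whose probe set is open to cross-hybridization, lost it without any 1 of 7 (fraction 2 and 3, fraction plus LPS 1 and 3, mixture 1, mixture plus LPS 2 and 3), at 1.07 to 1.19. Cx3cr1 lost it without any 1 of 8 (all 6 arrays of the fraction, mixture plus LPS 2 and 3), at -1.62 to -1.40. Herpud1 kept it only without fraction array 1, mixture array 3 or mixture plus LPS array 1, and was otherwise at 0.58 to 0.67. Scd2 kept it only without fraction array 1 or fraction plus LPS array 2, and was otherwise at 0.93 to 1.33, and Cebpd only without fraction array 3, and was otherwise at 0.78 to 0.89. The other 19 kept their calls without each array in turn. Other settings also ended some of these calls. Median centring did so for Cebpd, Scd2 and Herpud1 (adjusted p = 0.071, 0.068 and 0.075). The fit without the eBayes trend did so for them and for Acod1, Tnfaip2, Cx3cr1 and Ppp1r15a (adjusted p = 0.079 to 0.12). Scd2 lost its call with no filter (adjusted p = 0.054) and Cx3cr1 with only the compared arrays (adjusted p = 0.055). The 1.5-fold minimum ended most of these calls. Only 5 genes passed it, Cxcl2, Klf4, Hdac9, Cxcl10 and Hspa1b. All the other flagged genes lost their calls, such as Lif, Cd83 and Atf3 (adjusted p = 0.3, 0.35 and 0.59).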

How the results depend on the processing

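The LPS response with the mixture (2844 genes) gave 2086 to 2519 calls with each array left out in turn, 3390 with the replicate number as a block, 4733 with every kept probe set, 371 with a 1.5-fold minimum and 2378 to 4126 under the other settings. The difference from solvent control (0 genes) gave 0 with the block, 2 without the arrays numbered 1 and 0 to 10 with arrays left out. The difference from the fraction (234) gave 537 with the block, 121 without the trend, 5 with the fold minimum and 107 to 200 with arrays left out. LPS in solvent control gave 6268 with every kept probe set, 554 with the fold minimum and 2805 to 3800 with arrays left out; LPS in the fraction gave 7480, 6713 with all probe sets, 758 and 3603 to 3876. Of 120 called genes among 128 named for LPS in the mixture, 15 lost their call under an alternative other than the fold minimum, 13 of them without an array or the arrays numbered 1, and 34 with the fold minimum. No called difference of a named gene changed sign under these alternatives, but median centring turned the split of 961 higher and 1883 lower into 1689 and 1092. Of 728 counts of list members, 71 moved by over 1.5 times. The cause of these changes was not tested, except that the fold minimum by construction leaves fewer genes and every probe set counts genes more than 1 time. Deviations from the group means correlated positively between all same-numbered arrays, a hint of pairing from the data and not from the design. Such deviations sum to 0 within a group, so lower correlations with the other numbers follow from this and add nothing. Signals near the array median limit the precision for genes such as Il6, Il1a and Nos2.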
